A study of Mus musculus with 20 samples.

Results

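TRAV12 is a family of variable (V) gene segments of the T cell receptor (TCR) α chain, and it was described here across CD8 T cells of 4 mouse genotypes. An in-frame TCRα clone was counted in the family when the first V gene listed for it was TRAV12-1, TRAV12-2, TRAV12-3, TRAV12D-1, TRAV12D-2, TRAV12D-3, TRAV12N-1, TRAV12N-2 or TRAV12N-3. These 9 members held 53327 of the 212832 in-frame TCRα clones of 17 mice. A clonotype was a distinct combination of V gene, J gene and amino acid sequence of the complementarity-determining region 3 (CDR3) in a mouse, and the family held 46605 of 197526 clonotypes summed over the mice. The family was selected on its share of clonotypes by genotype, which was known beforehand, so the shares of the family and of its members are given as a description with no test.

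The study asked how proteasome subunits of the thymus shape the TCR repertoire of CD8 T cells. WT mice carry both β5i, the catalytic subunit of immunoproteasomes, and β5t, the catalytic subunit of the thymoproteasomes of cortical thymic epithelial cells. β5i-KO mice lack β5i and β5t-KO mice lack β5t. BIT mice carry β5t-encoding Psmb11 sequence in place of β5i-encoding Psmb8 sequence, so that cells that would make β5i make β5t instead, and the study used 1 BIT line unless it said otherwise. All mice were male, 9 to 12 weeks old and on the C57BL/6 background, and no other allele or treatment was given. Each library came from 1000000 sorted TCRβ-high CD4-CD8+ T cells, whose source the labels give as lymph nodes and the protocol as lymph nodes with spleens. The libraries compared came from 4 WT and 4 BIT mice, 5 mice of β5i-KO and 4 of β5t-KO, without WT 5, β5t-KO 5 and BIT 3. TCR libraries do not measure Psmb8 or Psmb11, so they cannot check the genotype labels.

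A TCRα chain is made by joining 1 V segment to 1 joining (J) segment, and enzymes trim the ends and may add bases without a template before the ends are sealed. When an uncut hairpin end is opened off centre, a few bases complementary to the end are left, which are called palindromic bases. The CDR3 lies across the joint and contacts the peptide held by MHC molecules, so its length depends on how much germline sequence was kept, on the J segment and on the bases added. In the mouse, a stretch of the V locus that includes TRAV12 exists in several copies, and the copies are named D and N. In the thymus, only immature T cells whose receptors bind self-peptide and MHC within a permissive range develop further, so that the repertoire of mature cells is a selected part of all rearrangements.

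The last bases of the members' V segments are shown because they set the first residues of every CDR3 described below. They are from GENCODE vM39 on GRCm39, 5′ to 3′ on the plus strand, and capitals mark the positions at which the ends differ.

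TRAV12-1, TRAV12-3, TRAV12D-1, TRAV12D-3, TRAV12N-1 and TRAV12N-3: ctctgccctgtactActgtgctCtgagtga

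TRAV12-2: ctctgccctgtactActgtgctTtgagtga

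TRAV12D-2 and TRAV12N-2: ctctgccctgtactTctgtgctTtgagtga

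The CDR3 begins at the codon tgt, so that every member encodes cysteine, alanine, leucine and serine (CALS) when the V end is kept whole. The closing ga then starts a codon for aspartate or glutamate, which the next base settles, and a whole V end followed by a palindromic t gives aspartate. Keeping the whole V end is therefore one way to a CDR3 that starts with CALSD. The 6 members of the first line cannot be told apart by this stretch, and a CDR3 alone does not name the member.

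The members lie on chromosome 14 in GRCm39, all on the plus strand. TRAV12D-1 spans chr14:53081922-53082498, TRAV12D-2 chr14:53153256-53153883 and TRAV12D-3 chr14:53167246-53167739. The N copies follow, with TRAV12N-1 at chr14:53392969-53393545, TRAV12N-2 at chr14:53464230-53464857 and TRAV12N-3 at chr14:53478202-53478701. TRAV12-1 at chr14:53775648-53776195, TRAV12-2 at chr14:53853772-53854371 and TRAV12-3 at chr14:53859114-53859702 lie nearest to the J segments. Each D copy and its N copy were identical over the last 200 bases of the V segment (0 differences), whereas TRAV12-1 and TRAV12-3 differed at 13 of these bases, TRAV12-2 and TRAV12D-2 at 7, and TRAV12-1 and TRAV12-2 at 19.

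Many clones listed several members, which limited the naming of members. TRAV12-1 was listed first for 31364 clones, 58.8% of the family, and 26680 clones, 50.0% of the family, listed TRAV12-1 and TRAV12-3 together. TRAV12-2 was listed first for 12501 clones, and 6.82% of these listed several V genes. TRAV12N-2 was listed first for 3710 clones, of which 0.539% listed several, so nearly all clones under this name listed it alone. TRAV12D-2 was listed first for 3012 clones, of which 99.3% listed several, and 3004 clones listed TRAV12D-2 with TRAV12N-2. TRAV12-3 was listed first for 1417 clones but appeared anywhere in the list of 28051. TRAV12D-1 was listed first for 1279 clones, and 1262 clones listed TRAV12D-1 with TRAV12N-1. TRAV12D-3 was listed first for 44 clones. TRAV12N-1 and TRAV12N-3 were listed first for 0 clones and appeared behind another member in 1268 and 40. A value given for TRAV12-1, TRAV12D-1 or TRAV12D-2 thus also covers the members listed beside it. In all, 10 family clones also listed a gene outside TRAV12.

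Depth differed widely between libraries. They held 1983032 to 8480570 TCRα reads from 14772 to 602397 unique molecules, and 141 to 5777 TRAV12 clonotypes. β5t-KO 2 with 141 and β5t-KO 4 with 362 TRAV12 clonotypes were the shallowest in clonotypes, and WT 1 followed with 790. In β5i-KO 4 the least read clone had 9 reads and 54.2% of clones had 1 molecule, against 6.67% to 10.4% in the other libraries. TRAV11-TRAJ18 chains of invariant NKT cells made up 0% to 0.0250% of in-frame molecules (0 in 8 libraries), and TRAV1-TRAJ33 chains of MAIT cells 0% to 0.0198% (0 in 9 libraries).

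TRAV12 made up 32.3%, 29.8%, 26.4% and 24.2% of TRAV clonotypes in the 4 WT mice. In the β5i-KO mice it made up 22.7%, 28.0%, 22.1%, 24.2% and 26.9%, in the β5t-KO mice 23.7%, 22.9%, 24.1% and 21.9%, and in the BIT mice 22.2%, 23.2%, 23.3% and 23.0%. Every β5t-KO mouse and every BIT mouse compared was thus below the lowest WT mouse, and the β5i-KO mice overlapped all other groups. In WT mice the share fell as depth rose, in the order of 2454, 5784, 15092 and 16876 in-frame TCRα clonotypes. BIT 1, BIT 4 and BIT 5 held 26272, 18472 and 22895, more than any WT mouse, and BIT 3 with 455 had a share of 26.9%. The β5t-KO mice held 622 to 7656. Whether depth set these differences was not tested. From highest to lowest, the group means were 28.2% ± 3.61 for WT (SD, n = 4), 24.8% ± 2.59 for β5i-KO (n = 5), 23.1% ± 0.965 for β5t-KO (n = 4) and 22.9% ± 0.507 for BIT (n = 4), and the last 3 groups overlapped one another. Counted by molecules in place of clonotypes the order changed, because the family held 30.4% to 34.9% of TRAV molecules in WT mice and 28.9% to 32.9% in β5t-KO mice, ranges that overlap, against 25.5% to 28.4% in BIT mice.

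TRAV12-1 carried most of this difference. It made up 19.2%, 18.5%, 15.4% and 15.03% of TRAV clonotypes in WT mice, and 12.9%, 13.1%, 13.5% and 13.4% in β5t-KO mice. In BIT mice it made up 11.1%, 12.8%, 13.2% and 12.0%, and in β5i-KO mice 11.6% to 17.8%. Both β5t-KO and BIT mice lay below every WT mouse, and in WT mice this share too fell as depth rose. TRAV12-2, which shares most of its sequence with TRAV12D-2 and TRAV12N-2, made up 4.56% to 7.25% of TRAV clonotypes in WT mice and overlapped with every other genotype. As a share of the family, TRAV12-1 held 58.4% to 62.2% of clonotypes in WT mice and 50.3% to 56.7% in BIT mice, whereas TRAV12-2 held 18.9% to 22.9% and 23.1% to 28.1%. The balance of these 2 members therefore did not overlap between BIT and WT mice. TRAV12N-2 (6.46% to 7.75% of the family in WT) and TRAV12-3 (1.57% to 4.43%), TRAV12D-1 (2.22% to 3.92%) and TRAV12D-2 (3.29% to 5.99%) overlapped between WT and each other genotype. TRAV12D-3 held at most 0.202% of TRAV12 clonotypes in any WT mouse.

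**Figure D1:**
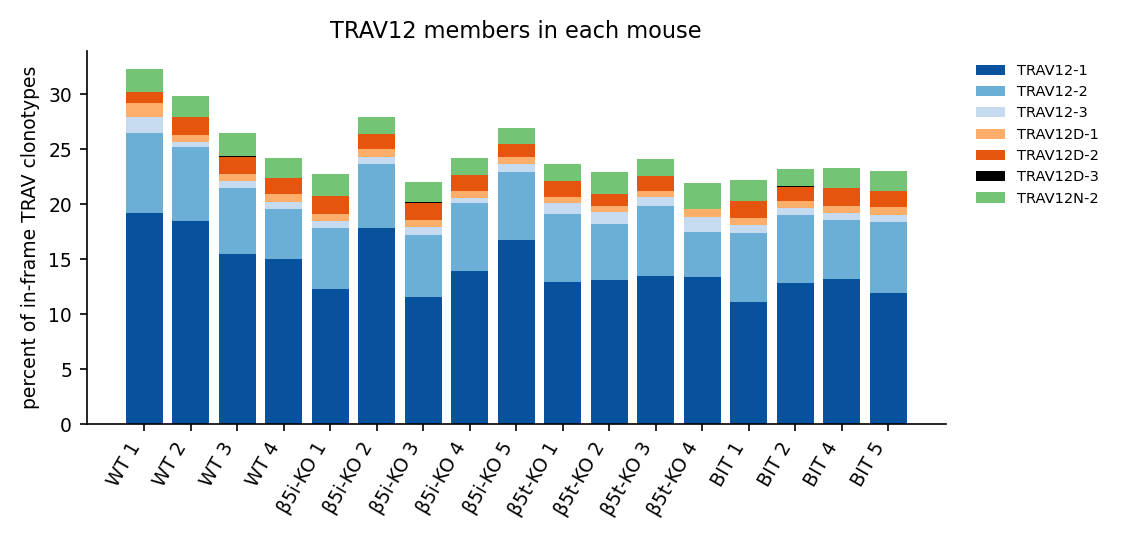
Share of in-frame TRAV clonotypes (percent, y axis) taken by each TRAV12 member in each of the 17 mice, stacked by member and grouped by genotype. TRAV12-1 is the largest block in every mouse and spans 15.03% to 19.2% in WT, 12.9% to 13.5% in β5t-KO and 11.1% to 13.2% in BIT mice.

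Out-of-frame rearrangements, which make no receptor chain and were not used to choose the family, gave a lower share. TRAV12 made up 16.3% to 22.3% of out-of-frame TRAV clonotypes in WT mice, 13.5% to 17.4% in β5i-KO mice, 12.9% to 17.3% in β5t-KO mice and 14.6% to 16.3% in BIT mice. The WT mean was the highest (18.5% ± 2.78, SD, n = 4), but every other genotype overlapped with WT and no difference from WT passed. The difference was -3.45 percentage points for β5i-KO mice (exact permutation test, two-sided p = 0.0794, n = 5 against 4). For BIT mice it was -2.92 points (exact permutation test, two-sided p = 0.0571, n = 4 against 4). For β5t-KO mice it was the smallest, -2.68 points (exact permutation test, two-sided p = 0.229, n = 4 against 4). These shares rest on 8 to 461 out-of-frame TRAV12 clonotypes per mouse.

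CDR3 length set the β5t-KO mice apart within the family. The mean length of TRAV12 CDR3s was 13.40, 13.33, 13.45 and 13.53 residues in WT mice. In β5t-KO mice it was 13.95, 14.13, 13.92 and 14.11 residues, longer in each mouse than in any WT mouse. It was 13.53, 13.33, 13.52, 13.40 and 13.43 residues in β5i-KO mice and 13.44, 13.39, 13.56 and 13.42 in BIT mice, both of which overlapped with WT. The β5t-KO mean exceeded the WT mean by 0.602 residues and the BIT mean by 0.577, each the largest separation that 4 mice against 4 can show (exact permutation test, two-sided p = 0.0286, the smallest possible). BIT mice differed from WT mice by 0.0242 residues and β5i-KO mice by 0.0131, less than the SD within a group of 0.0752 to 0.110.

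The other TRAV clonotypes of the same mice differed in the same direction by less. Their mean length was 13.66 to 13.77 residues in the 4 β5t-KO mice and 13.59 to 13.63 in WT mice, again with no overlap, and the difference of means was 0.0892 residues (exact permutation test, two-sided p = 0.0286). BIT mice had 13.65 ± 0.0283 residues there and β5i-KO mice 13.63 ± 0.0482 (SD), and both overlapped with WT. TRAV12 CDR3s were shorter than those of other TRAV clonotypes by 0.0806 to 0.263 residues in WT mice, and longer by 0.258 to 0.404 residues in β5t-KO mice. The sign of the difference within a mouse was therefore opposite in WT and β5t-KO mice, and the groups were 0.512 residues apart in this difference (exact permutation test, two-sided p = 0.0286). Over 9 TRAV12 measures and 5 comparisons, 11 of 45 exact tests had an unadjusted p under 0.05 and 0 passed after Benjamini-Hochberg adjustment (smallest adjusted p = 0.143). Over 7 measures as TRAV12 minus other TRAV, 8 of 35 did and 0 passed (smallest adjusted p = 0.139). Since 4 mice against 4 cannot give a p below 0.0286, a measure compared in 4 against 4 could pass the adjustment only if most tests gave a p that low. For 5 mice against 4 the smallest possible p was 0.0159, and fewer such tests would be needed. The p-values measure only the spread between these mice.

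**Figure D2:**
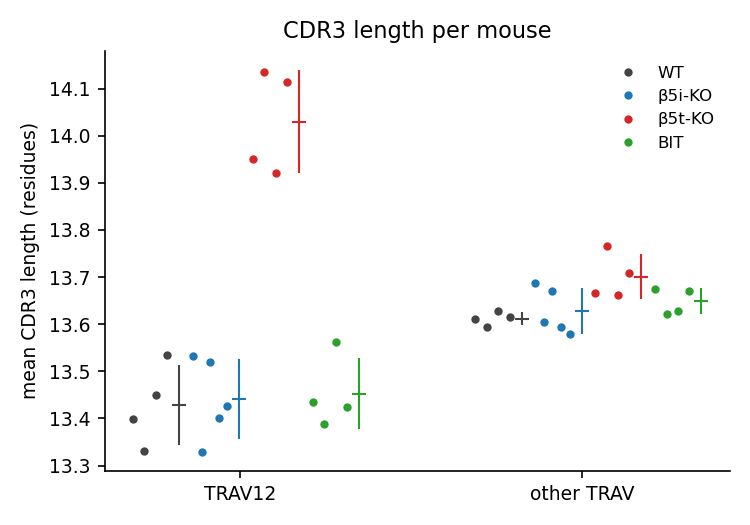
Mean CDR3 length in residues (y axis) per mouse by genotype, for TRAV12 clonotypes and for other TRAV clonotypes, with the group mean and bars of 1 SD. TRAV12 means lie at 13.92 to 14.13 residues in the 4 β5t-KO mice and at 13.33 to 13.56 in all other mice, and those of other TRAV clonotypes at 13.66 to 13.77 in β5t-KO and 13.59 to 13.63 in WT mice.

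Counts of clonotypes by CDR3 length, fitted with edgeR's quasi-likelihood test over 137 combinations of TRAV subgroup and length relative to the subgroup's own total, showed which lengths moved. This fit was added after the mean lengths were seen. In β5t-KO against WT mice 6 of the 11 TRAV12 lengths tested passed (adjusted p under 0.05), against 4.38% of all 137 combinations, and 0 of the 126 combinations of other subgroups passed. TRAV12 CDR3s of 10 residues made up 4.94%, 4.32%, 4.49% and 3.87% of TRAV12 clonotypes in WT mice and 1.12%, 1.42%, 1.42% and 1.10% in β5t-KO mice. They fell by 1.74 ± 0.19 on the log2 scale (SE; edgeR adjusted p = 7.93e-11), and the groups did not overlap. CDR3s of 11 residues fell by 1.03 ± 0.13 (edgeR adjusted p = 1.25e-08), from 7.68% ± 0.536 to 2.81% ± 1.33 of TRAV12 clonotypes (SD, n = 4 each). CDR3s of 12 residues fell by 0.64 ± 0.09 (edgeR adjusted p = 3.30e-08), from 16.8% ± 1.70 to 9.83% ± 1.39.

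Longer TRAV12 CDR3s had higher shares in β5t-KO mice. Those of 14 residues rose by 0.21 ± 0.05 on the log2 scale (SE; edgeR adjusted p = 0.00184), those of 15 residues by 0.34 ± 0.06 (adjusted p = 3.74e-06) and those of 16 residues by 0.58 ± 0.09 (adjusted p = 5.95e-07). The length of 13 residues had a log2 difference of 0.01 ± 0.07 and did not pass. Together, CDR3s of at most 11 residues made up 13.7%, 12.9%, 12.3% and 12.3% of TRAV12 clonotypes in WT mice and 5.69%, 2.84%, 5.74% and 3.04% in β5t-KO mice. In β5i-KO mice they made up 11.6% to 15.04% and in BIT mice 10.1% to 13.01%. Among other TRAV clonotypes the same lengths made up 4.96% to 5.85% in WT and 2.95% to 5.42% in β5t-KO mice, so in every WT mouse short CDR3s were more frequent in TRAV12 than elsewhere, whereas in β5t-KO mice the ranges of both overlapped. Although no length of a single other subgroup passed, their pooled CDR3s of at least 16 residues did not overlap. These made up 7.20% to 8.24% of other TRAV clonotypes in WT and 8.73% to 10.5% in β5t-KO mice.

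BIT mice gave the reverse picture against β5t-KO mice. The same 6 lengths passed of the 11 tested in TRAV12 and 4.38% of all 137 combinations, and the sign of each was opposite to that of β5t-KO over WT. The log2 difference was 1.71 ± 0.18 at 10 residues (SE; edgeR adjusted p = 3.56e-11), 0.96 ± 0.13 at 11 and 0.64 ± 0.08 at 12, and -0.23 ± 0.05 at 14, -0.32 ± 0.05 at 15 and -0.55 ± 0.08 at 16. Both comparisons share the β5t-KO mice and are not independent. In β5i-KO against WT, BIT against WT and BIT against β5i-KO mice 0% of combinations passed in edgeR, and 0, 0 and 2 TRAV12 lengths had an unadjusted p under 0.05. DESeq2 called 0 TRAV12 lengths there and 6 in each of the β5t-KO comparisons.

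The test of the difference itself, as the change in TRAV12 minus the change in all other TRAV clonotypes of the same mouse, was fitted over 13 lengths. In β5t-KO against WT mice 6 lengths passed, 46.2% of those tested, with log2 differences of -1.73 ± 0.28 at 10 residues (SE; edgeR adjusted p = 4.26e-08), -0.82 ± 0.16 at 11, -0.58 ± 0.09 at 12, 0.25 ± 0.07 at 14, 0.34 ± 0.08 at 15 and 0.41 ± 0.11 at 16. In BIT against β5t-KO mice 7 lengths passed, 53.8% of those tested, namely the same 6 and that of 17 residues with -0.50 ± 0.22 (edgeR adjusted p = 0.0450). The call at 17 residues was kept in 2 of 11 alternatives, with DESeq2 and without BIT 4, and lost with TMM and without any other single mouse of these groups. In the other 3 comparisons 0% passed, and 0, 1 and 1 lengths had an unadjusted p under 0.05 (DESeq2 called 0).

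**Figure D3:**
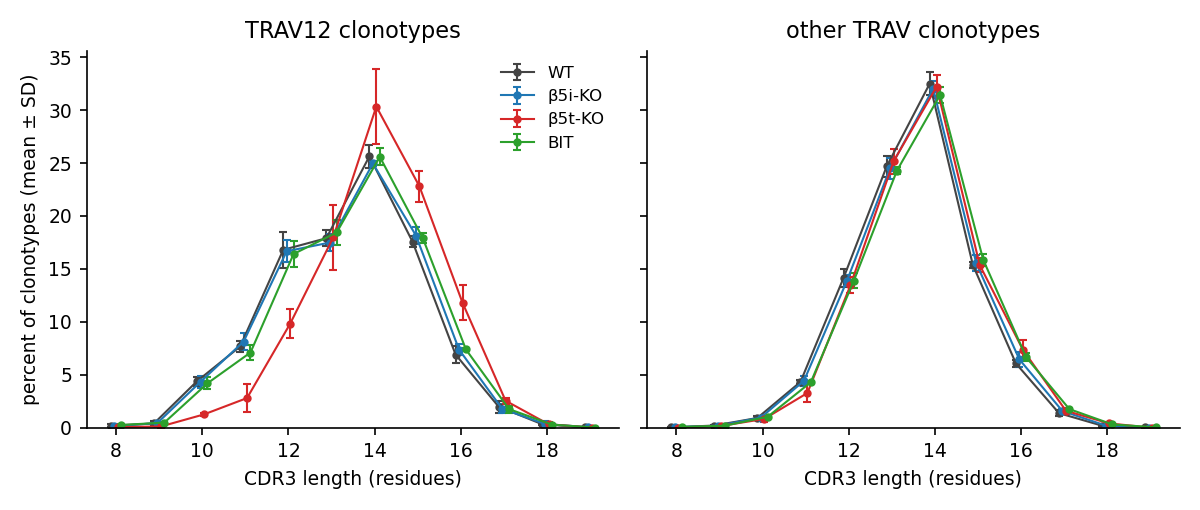
Percent of clonotypes (y axis) at each CDR3 length from 8 to 19 residues (x axis) by genotype, for TRAV12 and for other TRAV clonotypes, as mean with bars of 1 SD over mice. At 10 to 12 residues the β5t-KO curve of TRAV12 lies below those of the other 3 genotypes, and at 14 to 16 residues it lies above them.

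TRAV12-1 showed the largest difference in length among the members with enough clonotypes. Its mean CDR3 length was 13.29, 13.18, 13.39 and 13.48 residues in WT mice and 14.18, 14.33, 14.12 and 14.24 in β5t-KO mice. In BIT mice it was 13.23 to 13.48 and in β5i-KO mice 13.23 to 13.47 residues, so the β5t-KO mice stood 0.885 residues above WT with a gap between the groups. TRAV12-2 was 13.46 to 13.60 residues in WT and 13.64 to 13.99 in β5t-KO mice, a smaller difference of 0.273 residues with no overlap. TRAV12-3 was 13.17 to 13.77 residues in WT mice and 13.77 to 14.13 in the 3 β5t-KO mice that had at least 10 of its clonotypes. TRAV12D-1, TRAV12D-2 and TRAV12N-2, the copies farther from the J segments, overlapped between these genotypes in the 3, 2 and 4 β5t-KO mice with enough clonotypes, with TRAV12N-2 at 13.29 to 13.76 residues in WT and 13.49 to 13.84 in β5t-KO mice. TRAV12D-1 was 12.96 to 13.62 residues in β5i-KO mice and 13.63 to 13.97 in WT mice, shorter with no overlap. The nearest values, 13.615 and 13.625, almost met. They rest on 27 to 144 TRAV12D-1 clonotypes per β5i-KO mouse and 31 to 120 per WT mouse. Whether members differ from one another in the length difference was not tested.

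**Figure D4:**
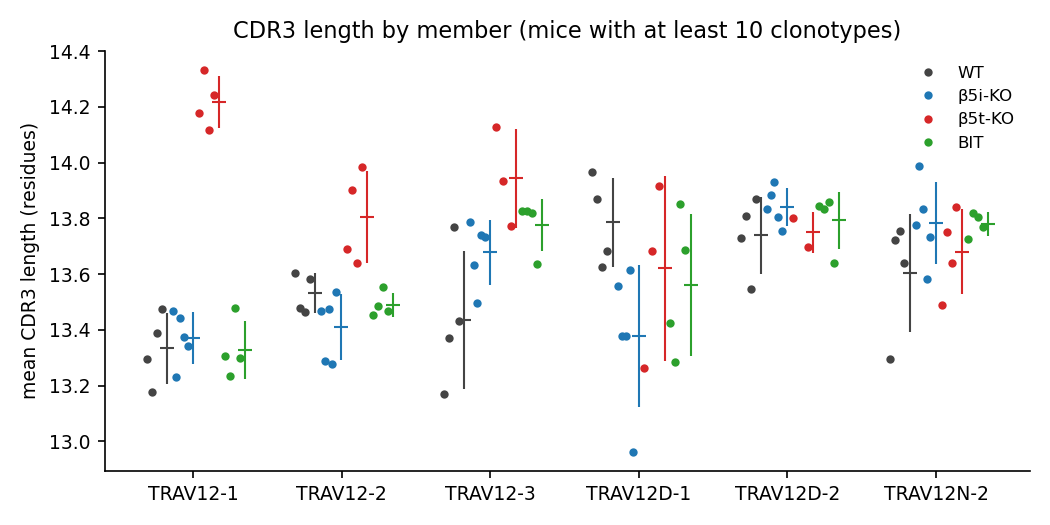
Mean CDR3 length in residues (y axis) of each TRAV12 member by genotype, 1 point per mouse with at least 10 clonotypes of that member. For TRAV12-1 the β5t-KO points (14.12 to 14.33) lie clear of all others, for TRAV12-2 they lie just above WT, and for TRAV12D-1, TRAV12D-2 and TRAV12N-2 they overlap with WT.

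The difference in length was also measured over the same number of clonotypes per mouse and with equal J usage. Among the 141 TRAV12 clonotypes with most molecules, which are all those of β5t-KO 2 but only the most abundant ones of the other mice, the mean length was 12.92 to 13.04 residues in WT, 14.13 to 14.31 in β5t-KO and 12.66 to 13.07 in BIT mice. With the same weight given to each J segment in every mouse, over 37 J segments that held 90.9% of TRAV12 clonotypes, it was 13.40 to 13.54 residues in WT and 13.86 to 14.03 in β5t-KO mice. Paired with 39 of 42 J segments that had at least 20 TRAV12 clonotypes in each group, the CDR3 was longer in β5t-KO than in WT mice, with a median difference of 0.379 residues. Out-of-frame TRAV12 joints, counted in nucleotides, overlapped between genotypes, with means of 40.5 to 41.9 nucleotides in WT and 40.2 to 42.8 in β5t-KO mice. The mean number of V bases trimmed in these joints was 2.63 to 3.22 in WT mice and 2.41, 1.25, 2.38 and 2.97 in β5t-KO mice. Its difference of -0.636 bases had the sign of that in frame, given next, but the groups overlapped (exact permutation test, two-sided p = 0.114, n = 4 against 4). The lowest value, 1.25, and the highest length are from β5t-KO 2, which had 8 such clonotypes. Out-of-frame V trimming in BIT mice was 0.353 bases below WT, with overlap (exact permutation test, two-sided p = 0.0571). With the V end set by exact match to the germline, BIT mice were 0.543 bases below WT without overlap (same test, p = 0.0286). The β5t-KO mice were 0.814 bases below WT by exact match, with overlap (same test, p = 0.143).

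More of the germline V end was kept in TRAV12 CDR3s of β5t-KO mice. The mean number of bases trimmed from the V end of TRAV12 clonotypes was 2.51, 2.78, 2.70 and 2.58 in WT mice and 2.01, 1.34, 1.97 and 1.71 in β5t-KO mice. In BIT mice it was 2.85, 2.81, 2.67 and 2.81, and in β5i-KO mice 2.61 to 2.81. β5t-KO mice lay below all others (difference from WT -0.882 bases, exact permutation test, two-sided p = 0.0286, adjusted p = 0.143). The V end given by MiXCR can include bases that differ from the germline, and when it was set by exact match instead, the means were 2.84 to 3.07 in WT and 1.67 to 2.25 in β5t-KO mice, a difference of -0.885 bases. In other TRAV clonotypes the means were 1.99 in WT and 1.905 in β5t-KO mice, and TRAV12 minus other TRAV differed by -0.798 bases between β5t-KO and WT mice (exact permutation test, two-sided p = 0.0286, adjusted p = 0.139). The number of bases inserted between the segments, as MiXCR placed their ends, was 2.41 ± 0.174 in WT and 2.37 ± 0.106 in β5t-KO mice (SD, n = 4 each; exact permutation test, two-sided p = 0.629). Fewer bases were also trimmed from the J end, 2.90, 3.33, 2.94 and 2.78 in β5t-KO against 3.30 to 3.39 in WT mice. This difference of -0.354 bases did not pass, and β5t-KO 2 lay within the WT range (exact permutation test, two-sided p = 0.0857, adjusted p = 0.214).

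The start of the CDR3 holds the residues that the kept V end encodes. The shares below were chosen after their values were seen and are a description. No base was trimmed from the V end in 33.4% to 38.4% of TRAV12 clonotypes in WT, 45.2% to 59.6% in β5t-KO and 32.1% to 34.4% in BIT mice. A CDR3 that started with CALSD was found in 28.9%, 25.7%, 26.4% and 26.9% of TRAV12 clonotypes in WT mice and 35.7%, 48.9%, 34.4% and 42.0% in β5t-KO mice. In BIT mice the share was 22.1%, 24.8%, 24.1% and 24.4%, below every WT mouse, and in β5i-KO mice it was 25.7% to 27.5%. With arginine next, as CALSDR, the share was 11.3%, 8.34%, 9.01% and 9.29% in WT mice, 12.7%, 21.3%, 11.4% and 18.8% in β5t-KO mice, 7.19% to 8.61% in β5i-KO mice, and 5.40%, 6.60%, 6.01% and 5.95% in BIT mice. These shares were not matched for the number of clonotypes. Among the 141 TRAV12 clonotypes with most molecules, CALSDR was only 0.709 percentage points higher in β5t-KO than in WT mice, and the groups overlapped. CALSD was 13.7 points higher there, without overlap. For the CALSDR start the BIT mice compared lay below every WT and every β5i-KO mouse, although their mean CDR3 length overlapped with both. Among the 141 clonotypes with most molecules, BIT mice overlapped with WT mice for CALSD and with β5i-KO mice for CALSDR. For CALSDR they did not overlap with WT mice there. BIT 3, left out of the comparisons, had 27.0% CALSD, within the WT range, and 8.20% CALSDR, within the β5i-KO range.

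The CALSDR start is given for the members with most clonotypes, and their difference was not tested. These member shares were not matched for the number of clonotypes per mouse. In TRAV12-1, CALSDR began 11.01% to 15.7% of clonotypes in WT, 8.62% to 10.9% in β5i-KO, 16.1% to 28.4% in β5t-KO and 6.54% to 8.24% in BIT mice, and these 4 ranges did not overlap. In TRAV12-2 the same start made up 3.39% to 4.66% in WT, 0% to 4.56% in β5t-KO and 3.08% to 4.66% in BIT mice, all overlapping. Among the central residues of TRAV12 CDR3s, from residue 4 to the fourth from the end, aspartate made up 5.55% to 6.38% in WT, 6.34% to 8.63% in β5t-KO and 5.08% to 5.38% in BIT mice. Aspartate thus overlapped between WT and β5t-KO mice. Asparagine made up 12.97% to 13.4% in WT and 9.85% to 12.6% in β5t-KO mice, and tryptophan 0.925% to 1.06% and 1.15% to 1.48%, both without overlap. Lysine and tyrosine were lower in β5t-KO mice by 0.435 and 0.580 percentage points, also without overlap, and all other residues overlapped. The net charge of the central residues was 0.475 ± 0.0217 in WT and 0.386 ± 0.0326 in β5t-KO mice (SD, n = 4 each; exact permutation test, two-sided p = 0.0286, adjusted p = 0.143). Weighted by molecules the sign of that difference reversed, to 0.0395 higher in β5t-KO mice. Hydropathy overlapped between the genotypes, with means from -1.55 in β5i-KO to -1.51 in BIT mice.

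J partners of TRAV12 were tested apart from the level of the family, as counts of each TRAV subgroup and TRAJ pair relative to the subgroup's own clonotypes. TRAV12 was joined to 43 TRAJ segments, 37 of them in every mouse. Its most used partners were TRAJ22 (mean 5.59% of TRAV12 clonotypes over the 17 mice), TRAJ23 (5.31%), TRAJ15 (5.18%) and TRAJ31 (4.70%). TRAJ23 and TRAJ15 had a higher share in TRAV12 than in other TRAV clonotypes in 17 of 17 mice, and TRAJ30 a lower share in 17 of 17.

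In β5t-KO against WT mice 5 of the 43 TRAV12 pairs passed in edgeR, where 1.40% of all 573 pairs did. TRAJ28 made up 1.01%, 0.583%, 0.959% and 0.838% of TRAV12 clonotypes in WT mice and 2.25%, 0.709%, 1.86% and 2.21% in β5t-KO mice. It rose by 1.23 ± 0.24 on the log2 scale (SE; edgeR adjusted p = 0.000276), and β5t-KO 2, with 141 TRAV12 clonotypes, lay within the WT range. TRAJ22 made up 5.82%, 5.95%, 4.80% and 5.20% in WT and 6.61%, 7.09%, 6.95% and 7.73% in β5t-KO mice, with no overlap. It rose by 0.39 ± 0.12 (edgeR adjusted p = 0.0496), near the threshold, and kept its call in 6 of 18 alternatives.

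The other 3 TRAV12 pairs had lower shares in β5t-KO mice. TRAJ31 made up 5.44%, 5.36%, 4.67% and 4.34% in WT and 3.37%, 2.84%, 3.23% and 2.76% in β5t-KO mice, and fell by 0.56 ± 0.14 on the log2 scale (SE; edgeR adjusted p = 0.0110). TRAJ6 made up 2.25% to 2.93% in WT and 1.15% to 2.13% in β5t-KO mice, and fell by 0.81 ± 0.21 (edgeR adjusted p = 0.0110). TRAJ7 made up 3.48% to 5.44% in WT and 2.13% to 2.78% in β5t-KO mice, and fell by 0.66 ± 0.16 (edgeR adjusted p = 0.00989). None of these 3 overlapped. The number of TRAV12 pairs called was 1 without β5t-KO 3, 2 without β5t-KO 1 and 3 without WT 4. The J segments lie on chromosome 14 in the order TRAJ31 (chr14:54425352-54425408), TRAJ28 (chr14:54429118-54429182), TRAJ22 (chr14:54434705-54434764), TRAJ7 (chr14:54448927-54448985) and TRAJ6 (chr14:54450145-54450206), so those that fell lie on both sides of those that rose.

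BIT against β5t-KO mice gave 4 TRAV12 pairs, where again 1.40% of 573 pairs passed in edgeR. TRAJ22 was lower in BIT mice (log2 difference -0.47 ± 0.11, SE) and so was TRAJ28 (-0.96 ± 0.22), whereas TRAJ31 was higher (0.59 ± 0.14), all with an edgeR adjusted p = 0.00359. TRAJ6 was higher by 0.80 ± 0.20 (edgeR adjusted p = 0.00501). BIT mice held 0.888% to 1.13% TRAJ28, 4.67% to 5.26% TRAJ22 and 4.11% to 5.67% TRAJ31 among TRAV12 clonotypes. In β5i-KO against WT, BIT against WT and BIT against β5i-KO mice 0% of pairs passed in edgeR, although 8, 11 and 6 TRAV12 pairs had an unadjusted p under 0.05, and DESeq2 called 0 TRAV12 pairs in each. Without β5t-KO 3 the count for BIT against β5t-KO mice was 0. DESeq2 called 1 TRAV12 pair in β5t-KO against WT and 0 in BIT against β5t-KO mice, so the J partners depended on the tool, whereas the 6 length calls of each comparison did not.

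A shift of J usage can be common to all V segments, so the change in TRAV12 was also tested against the change in other TRAV clonotypes. TRAJ28 alone passed in β5t-KO against WT mice, 2.33% of the 43 tested, with a log2 difference of 1.46 ± 0.29 (SE; edgeR adjusted p = 0.000166). Among other TRAV clonotypes TRAJ28 made up 0.744% to 0.868% in WT and 0.388% to 0.740% in β5t-KO mice, the opposite direction. TRAJ6, by contrast, was at 1.75% ± 0.316 of other TRAV clonotypes in WT and 1.25% ± 0.130 in β5t-KO mice (SD, n = 4 each), and its difference of -0.33 ± 0.23 between the families did not pass (edgeR adjusted p = 0.566). TRAJ31 with -0.48 ± 0.15 (edgeR adjusted p = 0.0709), TRAJ7 with -0.49 ± 0.18 (0.108) and TRAJ22 with 0.35 ± 0.13 (0.108) did not pass either. In BIT against β5t-KO mice 6.98% of the 43 passed, namely TRAJ28 (-1.10 ± 0.27), TRAJ22 (-0.40 ± 0.13) and TRAJ31 (0.59 ± 0.15). TRAJ28 kept this call in 16 of 16 alternatives and TRAJ31 in 15, all but that without β5t-KO 3, whereas TRAJ22 kept it in 6 and lost it with DESeq2 or TMM and without β5t-KO 1, β5t-KO 3, β5t-KO 4, BIT 2 or BIT 5.

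In each of the comparisons β5i-KO against WT and BIT against WT, 2.33% of the 43 passed, which is 1 segment. TRAJ47 was at 0.567% to 0.759% of TRAV12 clonotypes in WT and 0.632% to 1.38% in β5i-KO mice, with a log2 difference between the families of 0.78 ± 0.23 (SE; edgeR adjusted p = 0.0391). TRAJ34 was at 2.66% to 2.93% in WT and 3.49% to 3.67% in BIT mice, with 0.40 ± 0.11 (edgeR adjusted p = 0.0241). DESeq2 called neither. TRAJ47 was lost without WT 3, WT 4 or β5i-KO 4, and TRAJ34 without WT 1, WT 3, WT 4, BIT 1 or BIT 4. In BIT against β5i-KO mice 0% passed in edgeR, with 4 unadjusted p under 0.05 and 0 called by DESeq2. The mean rank of the J segment along the locus was 36.4 in WT and 34.5 in β5t-KO mice, that is, nearer to the V segments, but other TRAV clonotypes moved alike (33.1 and 31.4). In BIT mice it was 35.1 for TRAV12 and 33.01 for other TRAV. The rank in TRAV12 exceeded that in other TRAV by 2.70 to 4.59 in WT, 2.49 to 4.55 in β5t-KO and 1.97 to 2.31 in BIT mice, so BIT mice lay below both without overlap (differences of -1.26 and -1.01, exact permutation test, two-sided p = 0.0286 and adjusted p = 0.139 for each).

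**Figure D5:**
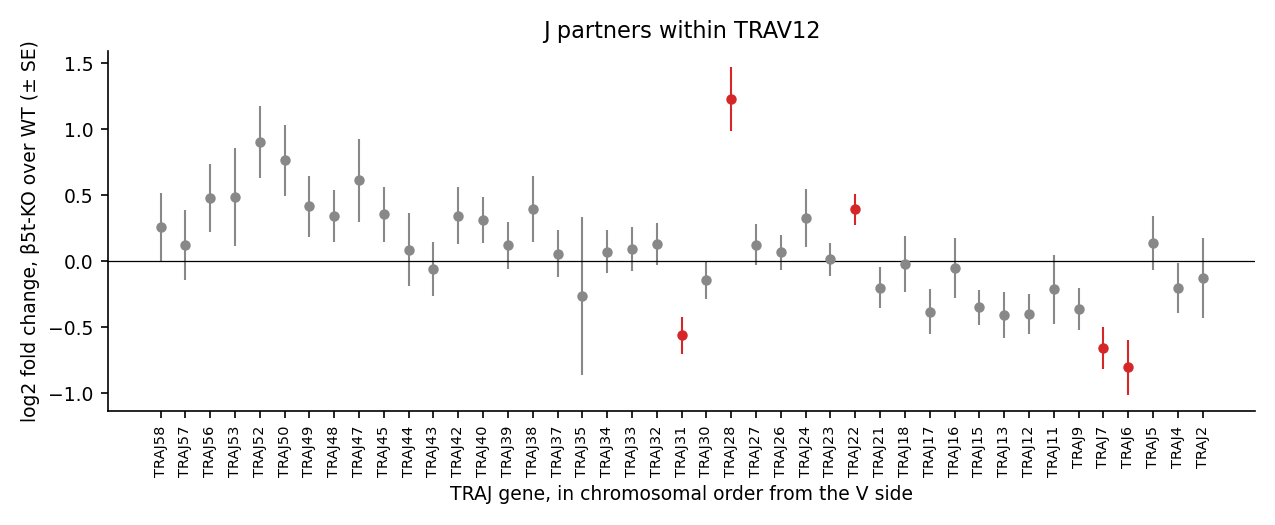
Log2 fold change of each TRAJ share within TRAV12 in β5t-KO over WT mice (y axis), with bars of 1 SE, for 43 TRAJ segments in chromosomal order (x axis), and those with an edgeR adjusted p under 0.05 in red. TRAJ28 (1.23) and TRAJ22 (0.39) lie above 0 and TRAJ31 (-0.56), TRAJ7 (-0.66) and TRAJ6 (-0.81) below.

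The TRAV12 sequences with the largest shares are given as single chains. They were chosen as the 3 with the largest mean share of TRAV12 molecules in each genotype, so their shares are a description. A high share in the genotype that ranked a sequence follows from this choice. The nucleotide sequences below are the most frequent ones of each CDR3, 5′ to 3′, with capitals for the bases that lie between the V end and the J start as MiXCR placed them.

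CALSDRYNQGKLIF, TRAJ23, first form: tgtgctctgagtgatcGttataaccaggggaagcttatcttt

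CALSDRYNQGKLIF, TRAJ23, second form: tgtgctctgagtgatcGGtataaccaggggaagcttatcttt

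CALSDRYSNNRLTL, TRAJ7: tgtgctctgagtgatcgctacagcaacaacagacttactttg

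CALSDLYSNNRLTL, TRAJ7: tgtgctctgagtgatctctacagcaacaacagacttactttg

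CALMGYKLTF, TRAJ9: tgtgctctgatgggctacaaacttaccttc

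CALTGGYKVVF, TRAJ12: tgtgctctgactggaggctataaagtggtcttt

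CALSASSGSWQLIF, TRAJ22: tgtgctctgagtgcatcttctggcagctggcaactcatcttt

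The first 4 lines keep the whole V end and the palindromic tc, with 0 to 2 bases counted as inserted. In both TRAJ7 lines MiXCR also gave the V segment the next pair of bases, gc or tc, although a palindrome would read ac there, so the count of inserted bases is a lower limit for such joints. In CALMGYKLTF and in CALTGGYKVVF the match to the germline V end stops 4 bases before its last base, although MiXCR placed the end of the latter 1 base later, across a mismatch. Both have 0 bases counted as inserted, and both are short, with 10 and 11 residues.

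Among these, the short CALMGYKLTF was at or near 0 in β5t-KO mice. It made up 1.07%, 0.730%, 0.836% and 1.01% of TRAV12 molecules in WT mice, 0.605% to 0.795% in β5i-KO and 0.421% to 1.14% in BIT mice, in which it was the largest. In β5t-KO mice it had 0 molecules in 3 mice and 4 molecules, 0.0113% of TRAV12 molecules, in β5t-KO 3. The 4 β5t-KO libraries held 21293 to 51131 TRAV12 molecules, and a count of 0 allows up to 3 molecules. Its main nucleotide form held 66.4% of its molecules and was found in 14 mice. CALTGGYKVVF, also short, made up 0.387% to 1.15% in WT, 0.233% to 0.546% in β5i-KO, 0% to 0.344% in β5t-KO and 0.403% to 0.516% in BIT mice.

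Of the chosen CDR3s that start with CALSDR, those with TRAJ23, TRAJ7 and TRAJ32 had their highest shares in β5t-KO mice, and that with TRAJ4 in WT mice. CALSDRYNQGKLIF made up 1.39% to 3.79% of TRAV12 molecules in WT, 0.290% to 1.03% in β5i-KO, 14.1% to 18.9% in β5t-KO and 0.0550% to 0.215% in BIT mice. Its 2 main nucleotide forms, which differ in the bases inserted, held 32.8% and 26.2% of its molecules and were found in 14 and 15 mice. In all, 17 nucleotide sequences encoded it. CALSDRYSNNRLTL made up 0.379% to 1.05% in WT and 4.58% to 8.83% in β5t-KO mice, in which TRAJ7 as a whole had fewer TRAV12 clonotypes than in WT mice. CALSDLYSNNRLTL, which has leucine in place of the arginine, had its highest shares in β5i-KO mice, 0.265% to 0.792%, against 0.0362% to 0.277% in WT, 0% to 0.192% in β5t-KO and 0% to 0.0420% in BIT mice. A CALSDR sequence of 16 residues with TRAJ32 was at 1.19% to 2.30% in β5t-KO and 0.165% to 0.537% in WT mice. One of 17 residues with TRAJ4 went the other way, with 0.528% to 1.14% in WT, 0.137% to 0.437% in β5i-KO, 0% to 0.0908% in β5t-KO and 0% to 0.220% in BIT mice, so the start alone did not set the order. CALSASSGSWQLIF was at 0.349% to 0.577% in BIT and 0% to 0.198% in β5t-KO mice.

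TRAV12 molecules were concentrated on fewer sequences in β5t-KO mice. The 10 largest CDR3 sequences held 6.68% to 11.01% of TRAV12 molecules in WT, 4.26% to 7.10% in β5i-KO, 25.9% to 38.5% in β5t-KO and 3.49% to 5.09% in BIT mice. The largest sequence alone held 14.1% to 18.9% in β5t-KO mice. These shares were not matched for depth. β5t-KO 2 and β5t-KO 4, with 141 and 362 TRAV12 clonotypes, gave 38.5% and 34.4%. β5t-KO 1 and β5t-KO 3, with 1512 and 1828, gave 28.9% and 25.9%, and WT 2 with 1715 gave 6.68%. Molecules per TRAV12 clonotype, as a ratio to other TRAV clonotypes of the same mouse, were 1.50 ± 0.171 in β5t-KO mice (SD, n = 4) and 1.25 ± 0.111 in WT mice (n = 4), with 1.22 ± 0.0902 in BIT and 1.21 ± 0.0425 in β5i-KO mice. The β5t-KO mice did not overlap with WT or BIT mice (exact permutation test, two-sided p = 0.0286, adjusted p = 0.143). In bulk libraries, more cells of a clone and more TCR RNA per cell cannot be told apart.

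Sharing between mice was at a similar level in the family and outside it. Of 20971 distinct TRAV12 CDR3 sequences 32.1% were found in 2 or more mice, against 28.3% of 71621 in other TRAV. In all 17 mice 4 TRAV12 sequences were found, against 9 in other TRAV. The 4 all started with CALSD, and 3 of them are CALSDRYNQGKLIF, CALSDRYSNNRLTL and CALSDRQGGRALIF. Sharing depends on library depth, and β5t-KO 2 with 141 TRAV12 clonotypes bounds the last count.

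Over the 17 mice, the TRAV subgroups whose log2 clonotype share followed that of TRAV12 most were TRAV3 (Pearson's r = 0.50), TRAV7 (0.23) and TRAV1 (0.13), of 17 subgroups compared. TRAV6 had the lowest correlation (-0.93). These values are a description, since the shares of one library add up to a fixed total.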

How the data were processed

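CD8 T cells of each mouse were sorted by the authors, and libraries were made with a SMARTer Mouse TCR a/b kit that tags molecules. The authors assembled clones with MiXCR, whose version and settings are not given in the sources used here, and the labels name mm10. The deposited TCRα tables give whole-number counts of reads and of unique molecules per clone with its V and J lists, CDR3 and segment ends, not normalised and not pooled. The members and lists were chosen with earlier results of these data known. Positions and germline ends are from GENCODE vM39 on GRCm39.

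Clones without a frameshift or stop codon were kept, and the first V and J gene listed were used. Shares are of TRAV clonotypes, with each clonotype counted once. Counts of V subgroup and J pairs, and of V subgroup and length, with at least 5 clonotypes in at least 4 libraries were tested with edgeR 4.0.16 (quasi-likelihood, offset of the subgroup's clonotypes, R 4.3.3, Benjamini-Hochberg threshold 0.05). For the difference from other TRAV, each mouse was a block. Mean measures were compared by exact permutation over mice, two-sided. Scripts were tested on simulated data. Alternatives were DESeq2 1.42.0, TMM, at least 2 molecules per clone, nucleotide clonotypes, molecules as weight, BIT 3 included, replicate block, each mouse left out and, added after the data were seen, the V end by exact match to the germline. Of 28 library pairs within groups, 0 were identical. The text names all 9 members, called TRAJ partners (at most 5 per comparison by smallest p), the 3 largest TRAV12 sequences per genotype and the 3 most alike subgroups. Python 3.11.15 and SciPy 1.17.1 were used. Intervals of molecule counts cover counting error only.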

Additional observations from a re-analysis of the deposited data

Results flagged for a closer look

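In groups of 4 or 5 mice, 1 mouse stood apart from the others by Dixon's test in 10 of 197 groups of values, 5.08%, where chance gives about 1 in 20. TRAV12-2 made up 18.9% of TRAV12 clonotypes in WT 4 and 22.4% to 22.9% in the other WT mice. TRAJ6 made up 2.93% of TRAV12 clonotypes in WT 4 and 2.25% to 2.33% in the other WT mice. In BIT 5 the mean CDR3 length was 13.637 residues for TRAV12-3 and 13.639 for TRAV12D-2, against 13.82 to 13.83 and 13.83 to 13.86 in the other BIT mice.

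In BIT 4 CDR3s of 10 residues made up 3.37% of TRAV12 clonotypes and those of 11 residues 6.08%, against 4.41% to 4.60% and 7.35% to 7.58% in the other BIT mice. CDR3s of 14 residues made up 24.5% in β5i-KO 4 and 25.0% to 25.1% in the other β5i-KO mice. Both BIT 4 values lie above those of every β5t-KO mouse.

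Of the sequences, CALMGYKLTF made up 0.0113% of TRAV12 molecules in β5t-KO 3 and 0% in the other β5t-KO mice. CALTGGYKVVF made up 1.15% in WT 1 and 0.387% to 0.476% in the other WT mice. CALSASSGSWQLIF had 0 molecules in WT 1, the WT library with fewest TRAV12 clonotypes, and made up 0.299% to 0.335% in the other WT mice.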

How the results depend on the processing

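Of 1256 recomputed values, 1118 kept their direction and their side of the threshold, or their size. Each of the 6 TRAV12 lengths called in β5t-KO against WT mice kept its call in all 12 alternatives, except that of 14 residues, which kept it in 11 and lost it with TMM. TRAJ28 kept its call in 18 of 18 in that comparison. Without β5t-KO 2, β5t-KO 4 and β5i-KO 4 together, 6 lengths were called and TRAV12 CDR3s were 0.507 residues longer in β5t-KO than in WT mice.

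TRAV12 pairs called numbered 1 with DESeq2 in β5t-KO against WT and 0 in BIT against β5t-KO mice, and with 1 mouse left out 1 to 5 and 0 to 5. TRAJ segments called in TRAV12 against other TRAV numbered, for β5i-KO against WT, 0 with TMM, DESeq2, at least 2 molecules or the 3 libraries left out together, and 4 with nucleotide clonotypes (0 to 3 with 1 mouse left out). For β5t-KO against WT they numbered 2 with TMM or nucleotide clonotypes (1 to 2), and for BIT against WT 0 with DESeq2 or at least 2 molecules (0 to 2). Lengths called in TRAV12 against other TRAV were 0 to 1 in BIT against WT and in BIT against β5i-KO mice with 1 mouse left out.

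The sign reversed for values near 0. The CDR3 length difference of BIT from WT was -0.0755 with molecules as weight and -0.00642 with nucleotide clonotypes (-0.0120 to 0.0594 with 1 mouse left out), and of BIT from β5i-KO mice -0.0769 and -0.00678 (-0.0252 to 0.0336). That of β5i-KO from WT mice was -0.000723 with at least 2 molecules (-0.0194 to 0.0483). Net charge with molecules as weight was 0.0395 in β5t-KO minus WT and -0.0849 in BIT minus β5t-KO mice. The out-of-frame share of BIT minus β5t-KO mice was 0.0574 with BIT 3 (-1.19 to 0.281). As TRAV12 minus other TRAV, the length difference was 0.00521 for BIT against WT and 0.00784 for BIT against β5i-KO with BIT 3, with ranges of -0.0561 to 0.0215 and -0.0535 to 0.00660, and -0.0291 to 0.0317 for β5i-KO against WT. The family's share by molecules was 32.8% for WT, 31.0% for β5t-KO, 28.5% for β5i-KO and 26.6% for BIT mice, and for BIT mice 24.3% with nucleotide clonotypes and 23.7% with BIT 3. The cause was not tested.

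Same-numbered mice had correlations of -0.249 to 0.451, over 0.1 in 8 of 18 pairs. They were not compared with those of differently numbered mice, so whether the replicate numbers mark shared batches was not tested. With a replicate block the TRAV12 length difference was 0.602 residues in β5t-KO minus WT mice (exact permutation test by sign flips, two-sided p = 0.125, the smallest possible with 4 pairs). It was -0.605 residues in BIT minus β5t-KO mice (exact permutation test by sign flips, two-sided p = 0.25). With a replicate block 4 TRAV12 pairs were called in β5t-KO against WT, without TRAJ7 (edgeR adjusted p = 0.0797), and 6 lengths, and the length difference of TRAV12 minus other TRAV between BIT and WT was 0.00571. Precision is limited by 141 and 362 TRAV12 clonotypes in β5t-KO 2 and β5t-KO 4.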

Other observations

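BIT 3, which was not in any comparison above, held 122 TRAV12 clonotypes, 26.9% of its TRAV clonotypes. Their mean CDR3 length was 13.6 residues with 2.78 bases trimmed from the V end, CALSD began 27.0% and CALSDR 8.20% of them, and 6.56% had at most 11 residues. β5t-KO 5 held 4 TRAV12 clonotypes, and a TCRα table of WT 5 was not used here.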
